A study of Mus musculus with 44 samples.

Results

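The excitatory synapse is built on the postsynaptic density, a protein meshwork under the membrane of the receiving neuron, and the genes of its core scaffolds were taken here as 9 members: Dlg1, Dlg2, Dlg3, Dlg4, Dlgap1, Dlgap4, Shank1, Shank2 and Shank3. The rule lists the members by name, with no threshold on a measured value, and they were found through the RefSeq identifiers of the deposited tables. Each member had 1 identifier among the 17158 in the tables, of which 17126 were in the libraries used for comparisons. In the meshwork the Dlg proteins lie closest to the membrane and hold glutamate receptors and adhesion proteins by their tails, the Dlgap proteins (also called SAPAPs) bind the Dlg proteins from below, and the Shank proteins tie the Dlgap proteins to Homer adaptors and to the actin skeleton. Synapses and this meshwork are assembled mostly after birth, and the Dlg and Shank families are known for mutations in neurodevelopmental disorders.

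All coordinates are those of the mouse build GRCm38.p6 (mm10), and all members lie on the plus strand. Dlg1 (NM_007862; the receptor-trafficking scaffold SAP97) spans chr16:31663935-31873356, Dlg2 (NM_011807; PSD-93) spans chr7:91090786-92449246, Dlg3 (NM_016747; SAP102) spans chrX:100767722-100818410 and Dlg4 (NM_007864; PSD-95, the most abundant scaffold of the mature density) spans chr11:70018605-70045532. Dlgap1 (NM_177639) spans chr17:70424792-70821413 and Dlgap4 (NM_146128) spans chr2:156613697-156764363. Shank1 (NM_001034115) spans chr7:44310264-44358353, Shank2 (NM_001113373) spans chr7:144175460-144424494 and Shank3 (NM_021423) spans chr15:89499608-89560261. The transcripts have between 12 exons (Dlgap1) and 26 exons (Dlg1). All 9 coding regions are longer than the 75th percentile of the annotated genes, from 2175 nt in Dlg4 to 6504 nt in Shank1.

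The members differ in base composition, which bears on the levels below because RNA-seq changes between some libraries moved with the G and C content of the open reading frame (ORF). The ORF held 45.4% G and C in Dlg1, 47.0% in Dlg2, 53.6% in Dlg3, 56.8% in Dlg4, 57.7% in Dlgap1, 60.5% in Dlgap4, 63.6% in Shank1, 59.7% in Shank2 and 64.5% in Shank3, with a median of 52.8% over all genes. The 30-nt stretch of each ORF that is richest in G and C is printed 5′ to 3′ for the member with the poorest such stretch, for Dlg4 and for the 3 Shank genes, with G and C in capitals.
Dlg2, chr7:91900829-91900858: GtGCGGCtGtaCGtGCGCaGaaGGCGaCCC
Dlg4, chr11:70043691-70043720: GCCGtGCGGCGGCtGCaGGCGGCCCaCCtG
Shank1, chr7:44352677-44352706: CaGCGGGCtGGGCCCGGGGGCGCCCCCGGG
Shank2, chr7:144411633-144411662: CCCCCGCCCCCGCCGGGCaGCGCCCaGGCC
Shank3, chr15:89524078-89524107: CCCGCGCCCCCCGCGCCGCCGCCCCGGGGC
The stretch of Shank3 held 30 G or C bases of 30, which 0.459% of 16999 ORFs reached, and those of Shank1 and Shank2 held 28, which 4.8% reached. The stretch of Dlg4 held 25 (26.1% of ORFs held at least as many) and that of Dlg2 held 21 (85.7%), against a median of 23.

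The study compared mRNA level, ribosome footprints and poly(A)-tail length in brain tissue of C57BL6J mice and in cortical neurons cultured from pups on postnatal days 0 to 1, with AraC added on day 2 to hold back dividing cells. RNA-seq and ribosome-protected fragments (RPFs) came from hippocampi of embryonic day 16, from the hippocampus and the cortex of 1 adult male mouse each, and from cultures at 14 days in vitro (DIV14; unstimulated, BDNF or glu/gly for 30 min, or transduced on day 5 with a lentivirus carrying EGFP under the synapsin promoter, alone or with the miR-1a-1 or miR-155 hairpin) or at 10 days (DIV10; unstimulated, or KCl for 10 or 30 min). BDNF is a growth factor that acts on synapses, glu/gly is glutamate with glycine, which opens NMDA receptors, and KCl depolarises neurons. The same 12 samples gave tail lengths by TAIL-seq or, for the hippocampi, by PAL-seq v2, which also measured the visual cortex of 8 mice of 6 to 7 weeks kept in the dark for 1 week, 4 of them then given light for 1 h.

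Reads on genes ranged from 448022 to 7689624 for the 12 RNA-seq libraries and from 2812215 to 23212489 for the 10 RPF libraries used, and tags from 389654 to 1057812 for TAIL-seq and from 86841 to 4812273 for PAL-seq v2. Outside the visual cortex each sample had 1 library per assay, so that values are given with 95% intervals for counting error, and differences between tissues or cultures had no replicate check. The RNA of the hippocampi was poly(A)-selected and that of the adult cortex and of 6 cultures was depleted of ribosomal RNA, which cannot be told apart from tissue in comparisons across them, and the step used for the other 3 cultures is not given in the sources used here. Markers of neurons summed to between 2630 and 4010 CPM (counts per 1000000 reads on genes) in the tissues and 2840 to 3510 in the cultures, and none was at 0. Markers of immature neurons and progenitors summed to 3870 CPM in embryonic hippocampus, to 94.9 and 79 in adult hippocampus and cortex, and to 293 to 1010 in the cultures. Markers of astrocytes summed to 844 to 1750 CPM in the cultures and none was at 0, those of oligodendrocytes to 46.1 to 101 with Mobp at 0 in each culture, and those of endothelium to 0 to 7.86 with Cldn5 at 0 in each culture. In these bulk samples fewer cells of a type and less RNA per cell cannot be told apart.

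By RNA-seq adult hippocampus held more mRNA of all 9 scaffold genes than embryonic hippocampus, and 7 of them were past 2-fold, against 19.6% of 9833 genes that were past 2-fold higher in adult tissue. The median log2 change of the members was 2.20, against -0.272 for all genes. Levels are in CPM per kb of counted ORF. Dlg4 mRNA stood at 769 in adult and 167 in embryonic hippocampus, a log2 change of 2.20 (95% counting interval 2.14 to 2.26), and was the highest of the members in both. Dlg2 and Dlg3 mRNA were also higher in the adult, with log2 changes of 2.48 and 2.07. Dlg1 mRNA changed least, from 37.1 to 59.0, a log2 change of 0.67 (0.54 to 0.80).

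Among the linkers, Dlgap1 mRNA went from 36.2 in embryonic to 263 in adult hippocampus (log2 change 2.86, 2.75 to 2.97), whereas Dlgap4 mRNA stood at 70.3 and 125 (0.83, 0.74 to 0.93) and did not reach 2-fold. By tail tags Dlgap4 was lower in the adult, at -1.25 on 14 and 13 tags. The 3 Shank genes were all past 2-fold. Shank3 mRNA had the largest change of the members, from 11.8 to 105 (log2 change 3.16, 3.02 to 3.31). Shank1 mRNA stood at 47.0 and 280, and Shank2 mRNA at 17.1 and 66.1. The summed progenitor markers moved the other way between the same 2 libraries, from 3870 to 94.9 CPM. Between the same libraries the markers of astrocytes went from 510 to 2280, of oligodendrocytes from 34.5 to 1510, of microglia from 63.2 to 317, of endothelium from 71.8 to 27.9 and of neurons from 2630 to 3470 CPM, and the part of cell types in the changes was not tested.

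**Figure D1:**
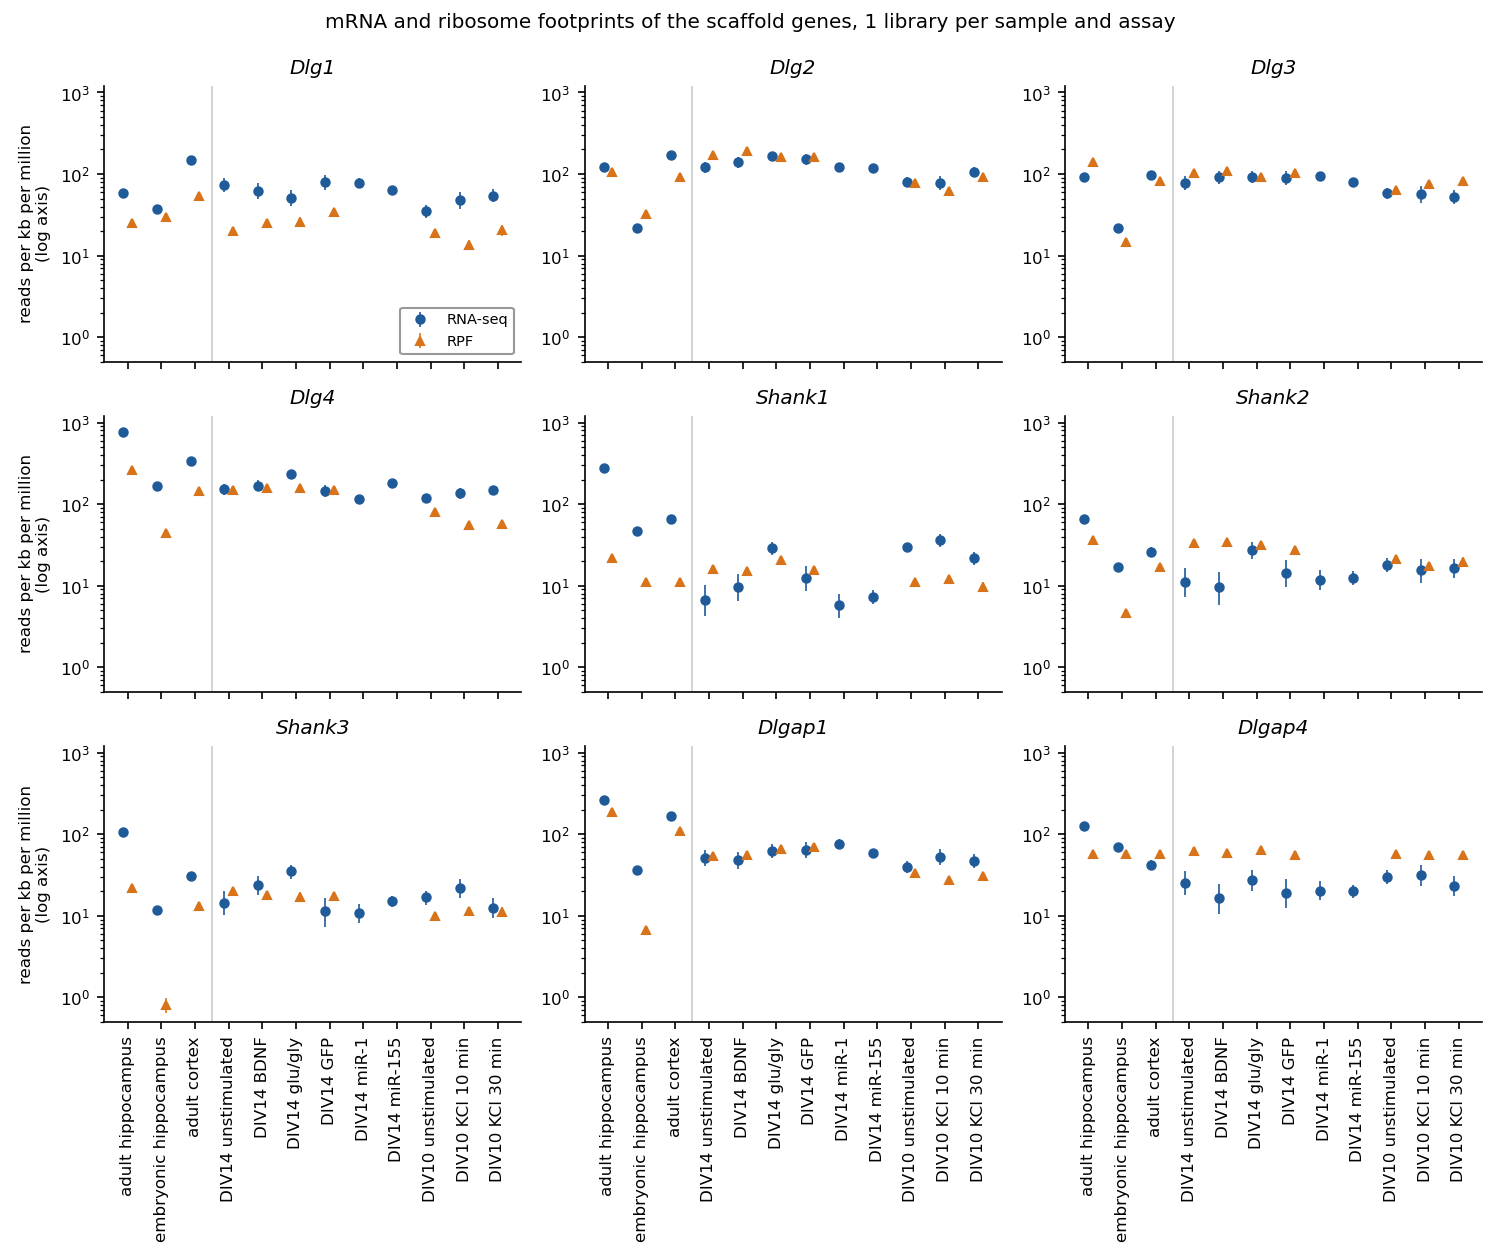
Level of each scaffold gene in every tissue and culture with RNA-seq (circles, 12 libraries) and RPFs (triangles, 10 libraries), in CPM per kb of ORF on a log axis, with 95% counting intervals as bars; the grey line separates the 3 tissues from the 9 cultures. Dlg4 stands at 769 in adult hippocampus RNA-seq, Shank3 RPFs fall to 0.796 in embryonic hippocampus, and the RPFs of Dlgap4 stay between 55.0 and 64.0 in all 10 libraries.

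RPFs separated the members further. In RPFs 6 of 9 were past 2-fold higher in adult hippocampus, against 24.5% of 9480 genes, and the median log2 change was 2.54, against -0.312 for all genes. Dlgap1 RPFs went from 6.65 CPM per kb in embryonic to 189 in adult hippocampus, a log2 change of 4.83 (4.69 to 4.97). Shank3 RPFs went from 0.796 to 21.7, a log2 change of 4.77 (4.48 to 5.08), with 95 RPFs in the embryonic library. Dlg3 RPFs changed by 3.25, Shank2 by 2.97, Dlg4 by 2.54 and Dlg2 by 1.70. The other 3 members were not past 2-fold: Shank1 at 0.98 (0.90 to 1.07), Dlgap4 at 0.0032 (-0.062 to 0.069) and Dlg1 at -0.23 (-0.33 to -0.13), which became 0.036 with TMM factors.

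Translational efficiency (TE) is the log2 ratio of RPFs to RNA-seq reads minus the median of the sample, where a gene had 10 RPM or more by RNA-seq. The TE of 4 members was past 2-fold higher in adult than in embryonic hippocampus, against 11.0% of 5431 genes, namely Dlgap1 (2.04, 1.87 to 2.21), Shank3 (1.68, 1.35 to 2.01), Dlg3 (1.25, 1.07 to 1.44) and Shank2 (1.10, 0.90 to 1.29). For these genes the RPF change exceeded the mRNA change. With a cutoff of 30 RPM in place of 10, 2 members were past 2-fold higher. The TE of Shank1 was past 2-fold lower in the adult, at -1.52 (-1.63 to -1.41), against 11.1% of genes, and that of Dlg1, Dlg2 and Dlgap4 was lower by 0.70 to 0.83 on the log2 scale. Members of the same family therefore differed in sign, with Shank1 apart from Shank2 and Shank3, and Dlgap4 apart from Dlgap1. The median TE change of all genes went with ORF G and C content, from -0.39 in the lowest decile to 0.21 in the highest. The part of G and C content in the TE changes of the members was not tested.

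**Figure D2:**
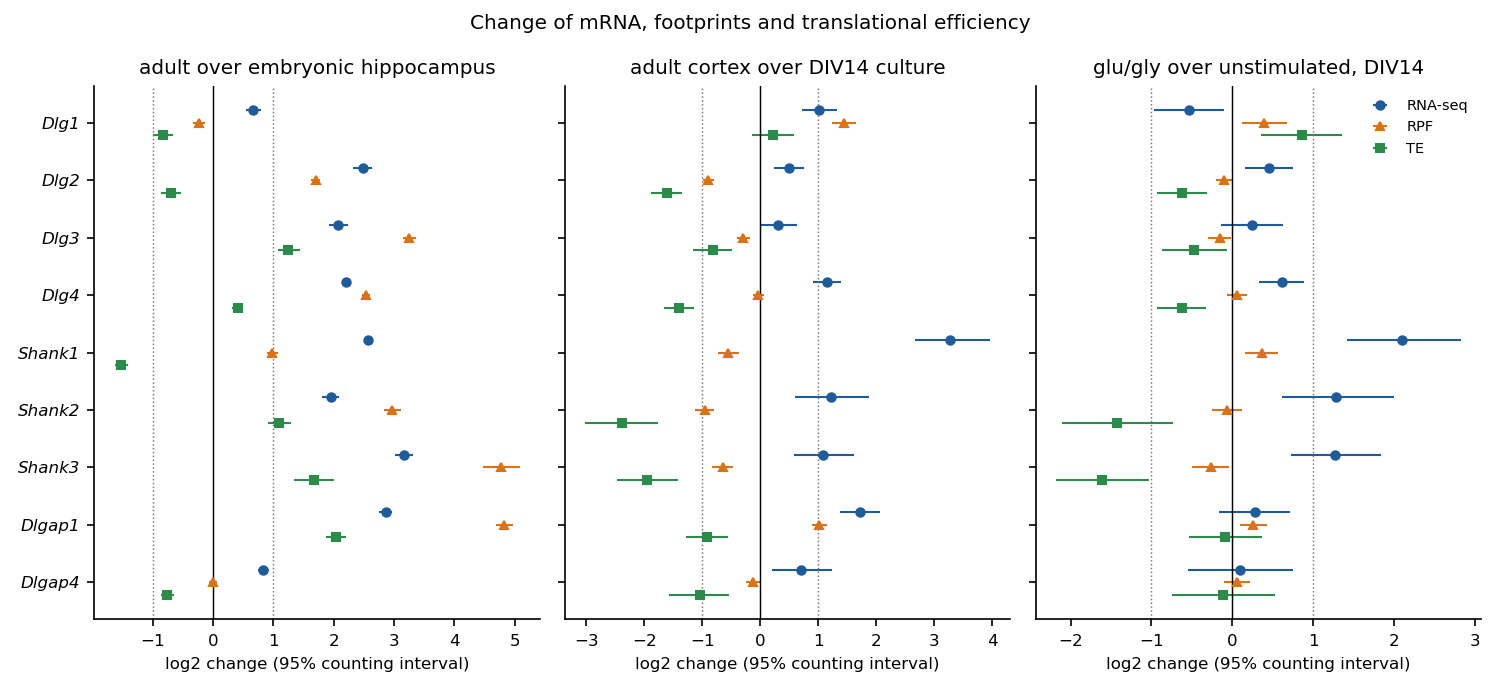
Log2 change of RNA-seq, RPFs and TE for each scaffold gene in 3 comparisons, with 95% counting intervals as bars and dotted lines at 2-fold. Between hippocampi the RPF change reaches 4.83 for Dlgap1 and is 0.0032 for Dlgap4, whereas glu/gly shifts RNA-seq of the 3 Shank genes by 1.27 to 2.09 and their RPFs by -0.27 to 0.36.

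Other genes of the density were also mostly higher in the adult. Of 36 listed partners (further scaffolds, receptors and enzymes of the density), 26 were past 2-fold higher and 0 past 2-fold lower in adult hippocampus by RNA-seq, and 27 higher and 1 lower by RPFs. The largest changes past 2-fold were those of Camk2a, the abundant kinase of the density, at a log2 RNA change of 7.20 (6.98 to 7.42), and of Grin2a, an NMDA receptor subunit, at 5.82 (5.31 to 6.37). Grin2a had 5789 RPFs in adult and was counted as 0 in embryonic hippocampus, which is at least 2070-fold higher when the embryonic library is set to the 3 counts that a count of 0 allows. Genes missing from a library were also counted as 0, and the bound holds only if this 0 was measured. The embryonic RPF library had reads on fewer genes than the adult one (11880 against 12653), although it was deeper.

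Adult cortex held less mRNA of the 3 Shank genes, Dlgap4 and Dlg4 than adult hippocampus, and more of Dlg1. By RNA-seq 5 members were past 2-fold lower in cortex, against 8.18% of 9439 genes, and 1 was past 2-fold higher, against 9.40%. Shank1 mRNA stood at 64.8 in cortex and 280 in hippocampus (log2 change -2.11), Shank3 at 30.6 and 105 (-1.78), Dlgap4 at 41.5 and 125 (-1.59), Shank2 at 26.0 and 66.1 (-1.35) and Dlg4 at 337 and 769 (-1.19). Dlg1 stood at 149 and 59.0 (1.34, 1.20 to 1.47), and at the RPM of the authors, which rest on another library total, its change was 0.72, short of 2-fold. The 2 libraries were prepared differently, and over all genes the median RNA change went from 0.49 in the decile of genes with the lowest ORF G and C content to -0.34 in the highest decile. Shank1 and Shank3 lie in the highest decile, Shank2 and Dlgap4 in the 9th, Dlg4 in the 8th and Dlg1 in the 2nd. The part of preparation and of ORF G and C content in the changes was not tested.

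In RPFs, which are not poly(A)-selected, 2 members were past 2-fold lower in cortex, against 9.43% of 9025 genes, and 1 was past 2-fold higher, against 11.0%. Shank2 RPFs stood at 17.1 in cortex and 36.4 in hippocampus (-1.09, -1.22 to -0.96) and Shank1 RPFs at 11.0 and 22.0 (counting interval -1.14 to -0.87), both near the 2-fold line, and Dlg1 RPFs were higher at 54.1 and 25.4 (1.09, 0.98 to 1.20). Dlg4, Dlgap1, Dlg3 and Shank3 RPFs differed by -0.83, -0.78, -0.76 and -0.74 and Dlgap4 RPFs by -0.031 (-0.12 to 0.063). The median RPF change of all genes also went with ORF G and C content, from 0.36 in the lowest decile to -0.24 in the highest. TE was past 2-fold higher in cortex for 3 members, against 9.06% of 4813 genes: Dlgap4 (1.66), Shank1 (1.20) and Shank3 (1.14), each of which was lower in RNA-seq. Of the 36 partners 3 were past 2-fold higher and 7 lower by RNA-seq, and 3 higher and 5 lower by RPFs. Homer3, a Homer adaptor, changed most (9 reads in cortex and 631 in hippocampus, log2 change -4.04, -5.18 to -3.11), followed by Camk2a (-1.89).

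Within a sample, the scaffold genes lay mostly below the median TE in the 3 tissues and mostly above it in 3 of the 4 DIV14 cultures. Below the median were 8 of 9 members in adult hippocampus, 8 of 9 in embryonic hippocampus and 7 of 9 in adult cortex. In unstimulated and BDNF-treated DIV14 cultures 1 of 8 was below it, and in the GFP culture 1 of 9, whereas with glu/gly 4 of 9 were below it. The DIV10 culture had 4 of 9 below, that with KCl for 10 min had 5 of 9, and that with KCl for 30 min had 4 of 6. The RNA of tissues and cultures was not prepared in 1 way, and the culture libraries were shallower, so that TE is compared between genes of 1 sample here. RNA changes of all genes between adult cortex and unstimulated DIV14 culture moved with ORF length. Their median went from -0.97 in the shortest decile to 0.65 in the longest, and that of RPFs from 0.010 to -0.22. The members are long, and the part of ORF length in their TE was not tested.

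Dlg1 had a TE below the median in 10 of 10 samples, from -1.39 in unstimulated DIV14 culture to -0.20 in embryonic hippocampus. Dlg3 lay below it in embryonic hippocampus (-0.44 ± 0.086, counting standard error) and above it in the other 9 samples, up to 1.23 ± 0.15. Dlg4 stood at -1.80 ± 0.041 in embryonic hippocampus, -1.39 ± 0.019 in adult hippocampus and -0.93 ± 0.051 in adult cortex. It was above the median in 3 cultures, at 0.48 ± 0.12 unstimulated, 0.40 ± 0.12 with BDNF and 0.58 ± 0.13 with GFP, and below it with glu/gly (-0.14) and at DIV10 (-0.15, and -0.82 and -0.79 after KCl). In adult hippocampus, where Dlg4 had the highest RPF level of the members (259 CPM per kb), its TE was at the 12.7th percentile.

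The extremes were Shank genes and Dlgap4. Shank1 stood at -3.48 ± 0.029 in adult hippocampus, the 1.26th percentile of 6342 genes, with 13148 RNA-seq reads and 3081 RPFs, at -1.96 ± 0.046 in embryonic hippocampus and at -2.28 ± 0.083 in adult cortex, the 2.57th percentile. Shank3 stood at -3.77 ± 0.16 in embryonic hippocampus, the 1.12th percentile, at -2.09 ± 0.037 in adult hippocampus and at -0.95 ± 0.11 in adult cortex. Both exceeded the median in some DIV14 cultures, Shank1 by 1.14 ± 0.27 with BDNF on 30 RNA-seq reads and Shank3 by 1.18 ± 0.30 with GFP on 26 reads. Dlgap4 was the reverse of Dlg1 in cultures, with a TE from 1.31 to 2.34 in all 6 cultures where it passed the cutoff, between the 89.9th and 97.8th percentiles, and it stood at 0.73 in adult cortex, -0.18 in embryonic and -0.94 in adult hippocampus. In the annotated 5′ leaders the number of upstream ATGs varied: Shank3 has 0, Dlg1, Dlg3 and Shank1 have 1, Dlg4 has 2, Dlgap1 and Dlgap4 have 3, Dlg2 has 7 and Shank2 has 8, so that 8 of 9 members have at least 1, against 49.6% of genes. The annotated leader is only 24 nt long in Shank3 and 76 nt in Shank1, against 165 to 460 nt in the other members.

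Footprints of Dlgap4 were the steadiest of the members. They stood at 57.7 CPM per kb in adult hippocampus, 57.6 in embryonic hippocampus, 56.5 in adult cortex, 61.6 in unstimulated DIV14 culture, 58.3 with BDNF, 64.0 with glu/gly, 55.0 with GFP, 57.6 at DIV10 and 55.7 and 56.2 after KCl for 10 and 30 min. Its mRNA ranged from 16.4 (BDNF, 23 reads) to 125 (adult hippocampus, 2675 reads) in libraries that were not prepared in 1 way.

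The unstimulated DIV14 culture and adult cortex differed more in scaffold mRNA than in scaffold footprints. By RNA-seq 6 members were past 2-fold higher in adult cortex, against 15.4% of 9716 genes: Shank1 (3.27, 2.66 to 3.96, with 22 reads in culture), Dlgap1 (1.71, 1.37 to 2.06), Shank2 (1.21), Dlg4 (1.14), Shank3 (1.08) and Dlg1 (1.01). RNA changes of all genes moved with ORF length between these 2 libraries, from a median of -0.97 in the shortest decile to 0.65 in the longest, and the members are long. When tail tags were counted in place of RNA-seq reads, no member was past 2-fold, with Dlgap1 at 0.51 and Dlg4 at 0.28. Shank1, with 3 tail tags in cortex and 0 in culture, and Shank2, with 2 in each, had too few to be called.

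By RPFs 2 members were past 2-fold higher in adult cortex, against 8.87% of 9247 genes. Dlg1 RPFs stood at 54.1 in cortex and 19.9 in culture (1.44, 1.24 to 1.65) and Dlgap1 RPFs at 110 and 54.6 (1.01, 0.89 to 1.14). Dlg4 RPFs stood at 146 and 150, and the interval of their log2 change ran from -0.14 to 0.057. The 3 Shank genes, Dlg2 and Dlg3 had fewer RPFs in cortex, with log2 changes between -0.96 and -0.29. TE was past 2-fold lower in cortex for 5 of 8 members, against 15.7% of 4086 genes, from -1.05 in Dlgap4 to -2.39 in Shank2. Median RPF changes of all genes went only from 0.010 in the shortest decile of ORF length to -0.22 in the longest. The part of the ORF length trend in the TE changes was not tested. Of the 36 partners 20 were past 2-fold higher and 1 lower by RNA-seq (Homer3, -2.28), and 6 of 35 higher and 1 lower by RPFs (Grip1, -1.96), the lower ones being named after their values were seen. Those higher in RNA-seq were led by the AMPA receptor partner Cacng3 (3.10, with 4 reads in culture) and by Nos1, the neuronal nitric oxide synthase (2.75, with 6 reads in culture).

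Older cultures held more scaffold footprints. All 9 members had RPF changes above 0 between DIV10 and DIV14, with a median of 0.67 against -0.047 for all genes, and 2 were past 2-fold, against 3.94% of 9333 genes. Dlg2 RPFs stood at 77.0 at DIV10 and 172 at DIV14 (1.16, 1.06 to 1.25), Shank3 RPFs at 9.81 and 20.4 (1.06, 0.87 to 1.25) and Dlg4 RPFs at 80.8 and 150 (0.89, 0.79 to 1.00). Dlg1 and Dlgap4 changed least, by 0.059 (-0.17 to 0.29) and 0.097 (-0.028 to 0.22). By RNA-seq 1 member was past 2-fold higher, against 3.57% of 9981 genes, and 1 past 2-fold lower, against 8.01%. Dlg1 mRNA stood at 35.0 and 74.0 (1.08, 0.68 to 1.48) and Shank1 mRNA at 29.4 and 6.70 (-2.13, -2.84 to -1.50), on 226 and 22 reads. TE was past 2-fold higher at DIV14 for Shank2 (1.42, 0.77 to 2.08) and Shank3 (1.37, 0.81 to 1.94), against 1.33% of 4500 genes. Neither had 30 RPM in the DIV14 culture, so that a cutoff of 30 left 0 members past 2-fold. The TE of Dlg1 went the other way, at -0.92 (-1.36 to -0.47), the 0.311th percentile of changes. The 2 cultures came from different experiments, and 6 culture samples were made in 2 batches of 3 from different litters that the labels do not name, so that age and batch cannot be told apart. Of the partners 2 of 35 were past 2-fold higher by RNA-seq, led by the adhesion protein Nlgn1 (1.13) and by the AMPA receptor partner Cacng8 (1.06), and 9 of 36 by RPFs, with 0 past 2-fold lower in either.

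Glu/gly for 30 min came with more RNA-seq reads of the 3 Shank genes and with no such change in their footprints. Summed immediate-early genes (6 genes that respond to activity) stood at 66.8 CPM in unstimulated, 748 in glu/gly and 1410 in BDNF culture. By RNA-seq 3 members were past 2-fold higher with glu/gly, against 4.09% of 9607 genes. Shank1 mRNA stood at 6.70 unstimulated and 28.6 with glu/gly (2.09, 1.42 to 2.82; 22 and 111 reads), Shank2 at 11.2 and 27.4 (1.28, 0.61 to 2.00; 25 and 72 reads) and Shank3 at 14.5 and 34.9 (1.27, 0.72 to 1.84; 38 and 108 reads). Dlg4 mRNA stood at 153 and 232 (0.61, 0.33 to 0.89), and Dlg1 mRNA was lower, at 74.0 and 51.1 (-0.54, -0.97 to -0.11). The median of the members was 0.45, against -0.061 for all genes. RNA changes of all genes also moved with ORF length, from a median of -0.24 in the shortest decile to 0.21 in the longest. RPF changes went from -0.30 to 0.10. The members are long, and the part of ORF length in these changes was not tested.

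In RPFs no member was past 2-fold in either direction with glu/gly, against 0.897% of 9034 genes. Shank1 RPFs stood at 16.1 and 20.7 (0.36, 0.16 to 0.56), Shank2 at 33.3 and 31.9 (-0.062, -0.25 to 0.12) and Shank3 at 20.4 and 17.0 (-0.27, -0.49 to -0.038). TE was accordingly past 2-fold lower for 2 of 8 members, Shank3 (-1.61, -2.18 to -1.03) and Shank2 (-1.42, -2.10 to -0.74), against 1.29% of 4731 genes. Neither had 30 RPM in the unstimulated culture, so that a cutoff of 30 left 0 members past 2-fold. Tail tags, another count of mRNA in the same cultures, put Shank3 at 0.64 (21 and 25 tags) and no member past 2-fold. Shank1 had 0 tail tags in both cultures and Shank2 had 2 unstimulated and 0 with glu/gly, too few for a call. The RNA-seq changes of these 2 genes could therefore not be checked by tail tags. Of the 36 partners 8 were past 2-fold higher and 1 lower by RNA-seq, and 0 in either direction by RPFs. Nos1 led those that were higher (1.70; 6 and 23 reads), and the lower one, named after its value was seen, was Homer3 (-1.36, -3.04 to 0.14; 13 and 6 reads).

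With BDNF no member was past 2-fold by RNA-seq, RPFs or TE, against 8.34% of 9700, 1.23% of 9028 and 0.638% of 4705 genes in either direction. RNA changes ran from -0.64 (-1.45 to 0.15) in Dlgap4 to 0.70 (0.081 to 1.33) in Shank3, and RPF changes from -0.16 in Shank3 to 0.33 (0.063 to 0.59) in Dlg1. BDNF and glu/gly were compared with the same unstimulated library, in which Shank1 had 22 reads, so that the comparisons are not independent. Shank1 mRNA with BDNF stood at 9.69, nearer the unstimulated culture. Among the partners 1 of 35 was past 2-fold higher by RNA-seq, the adhesion protein Nlgn3 (1.21, 0.47 to 1.99).

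After KCl all members were within 2-fold of the unstimulated DIV10 culture at both times, except that the TE of 3 was past 2-fold lower at 10 min when the sample median was not subtracted, and 1 was past 2-fold higher at 30 min by tail tags. After 10 min 4.34% of 10117 genes were past 2-fold by RNA-seq, 3.69% of 9299 by RPFs and 5.47% of 4734 by TE, and after 30 min 10.1% of 10028, 3.85% of 9365 and 6.31% of 3535. The member that moved most in RPFs was Dlg4, with 80.8 at DIV10, 54.8 after 10 min (-0.56, -0.69 to -0.43) and 56.8 after 30 min (-0.51, -0.68 to -0.34), whereas its mRNA stood at 119, 136 and 147 (at the RPM of the authors the change at 30 min was -0.19). Dlg1 RPFs stood at 19.1, 13.5 and 20.5, lower at 10 min by 0.50 (-0.74 to -0.26) and not at 30 min (0.10, -0.16 to 0.36). Dlg3 RPFs were higher at both times, at 0.24 (0.13 to 0.35) and 0.37 (0.23 to 0.50). Both times share the unstimulated DIV10 libraries. Of the partners 1 of 35 was past 2-fold higher by RNA-seq after 10 min, Cacng3, on 10 and 10 reads, and 0 of 34 after 30 min, and by RPFs 2 of 34 and 3 of 35 were past 2-fold lower.

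In the GFP culture all members were within 2-fold of the unstimulated DIV14 culture, where 9.62% of 9593 genes were past 2-fold by RNA-seq, 2.23% of 9006 by RPFs and 1.28% of 4287 by TE. These cultures came from different experiments, and the labels do not name culture batches, so that virus and batch cannot be told apart. Dlg1 RPFs changed most among the members, from 19.9 to 34.2 (0.78, 0.53 to 1.04), and Shank1 mRNA from 6.70 to 12.5 (0.89, 0.090 to 1.73). Of the partners the dynein light chain Dynll2 (-1.30, -2.12 to -0.54) and Cacng3 (1.18, on 8 and 4 reads) changed most, with 1 past 2-fold higher and 2 lower of 36.

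The microRNA cultures were compared with the GFP culture in RNA-seq. Of the 9 annotated 3′ UTRs, that of Dlg2 alone holds a match to the seed of miR-155-5p (bases 2 to 8), as do 7.95% of 16885 3′ UTRs. The mature miRNA is printed with its seed in capitals, and the stretch of Dlg2 with the matching bases in capitals, both 5′ to 3′ from RefSeq on the plus strand of GRCm38.p6; the match begins 2336 nt after the stop codon and is not followed by an A.
miR-155-5p, chr16:84714143-84714165: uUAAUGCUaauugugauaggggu
Dlg2, chr7:92446946-92446966: ccggattAGCATTAgcactga
With miR-155 Dlg2 mRNA stood at 119, against 151 with GFP, a log2 change of -0.34 (-0.59 to -0.091). Members without a match in the annotated 3′ UTR ran from -0.78 (-1.34 to -0.18) in Shank1 to 0.41 (-0.19 to 1.07) in Shank3, and Dlg2 lay within that range. The annotated transcripts of Shank1 and Shank2 end 1741 and 1549 nt before the annotated gene ends, and those stretches were not searched. No member was past 2-fold, as were 6.08% of 9442 genes. With miR-1 1 member was past 2-fold, against 8.75% of 9369 genes in either direction: Shank1 mRNA stood at 5.76, against 12.5 with GFP (-1.11, -1.82 to -0.41), on 36 reads in each library, and at the RPM of the authors it did not reach 2-fold. Dlg4 mRNA stood at 145 with GFP, 114 with miR-1 (-0.35, -0.66 to -0.037) and 181 with miR-155 (0.32, 0.060 to 0.59). Of the 35 partners compared, 1 was past 2-fold higher with miR-1, Camk2a (1.09, 0.53 to 1.69), and 0 with miR-155.

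Among the scaffold genes Dlg4 had the longest poly(A) tails. Mean tails are given for genes with at least 50 tags (medians for the hippocampi), and their place is given as a percentile among such genes of the library because TAIL-seq and PAL-seq v2 are not compared in nt. Of the 20 libraries with tails 19 had at least 3 members with 50 tags, and Dlg4 had the longest tail among them in 19 of 19. By TAIL-seq its mean tail was 137 nt in unstimulated DIV14 culture, 139 with BDNF, 134 with glu/gly, 136 with GFP, 133 with miR-1, 134 with miR-155, 135 at DIV10, 135 and 137 after KCl and 121 in adult cortex, where library medians lay between 99.5 and 112 nt. These values stood between the 96.6th and 99.3rd percentiles. In the visual cortex of 8 mice by PAL-seq v2 its tail was between 88.1 and 121 nt, the 83.1st to 95.7th percentiles, and in adult hippocampus it was 72 nt on 50 tags.

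Dlg1 lay at the other end. It had 50 tags in 11 libraries and the shortest tail of the members in 10 of them, with 78.6 nt in adult cortex (the 3.75th percentile), 100 nt in unstimulated and 103 nt in BDNF-treated DIV14 culture, and 64.6 to 89.4 nt in the 8 mice. Dlgap1 tails lay between the 60.1st and 89.4th percentiles by TAIL-seq (103 to 127 nt) and between the 20.8th and 54.9th by PAL-seq v2. Dlgap4 and Dlg3 spread widely, from the 24.1st to 85.7th and from the 23.5th to 74.3rd percentiles by TAIL-seq. Dlg2 lay between the 17.1st and 67.8th in 5 TAIL-seq libraries. In the annotated transcripts, AATAAA or ATTAAA on the sense strand of the last 40 nt is missing in Dlg4 and Shank1 and present in the other 7 members and in 77.2% of genes, and the letters TTTTAT or TTTTAAT in the last 150 nt, the form of a cytoplasmic polyadenylation element, occur in Dlg3 and in 22.9% of genes.

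**Figure D3:**
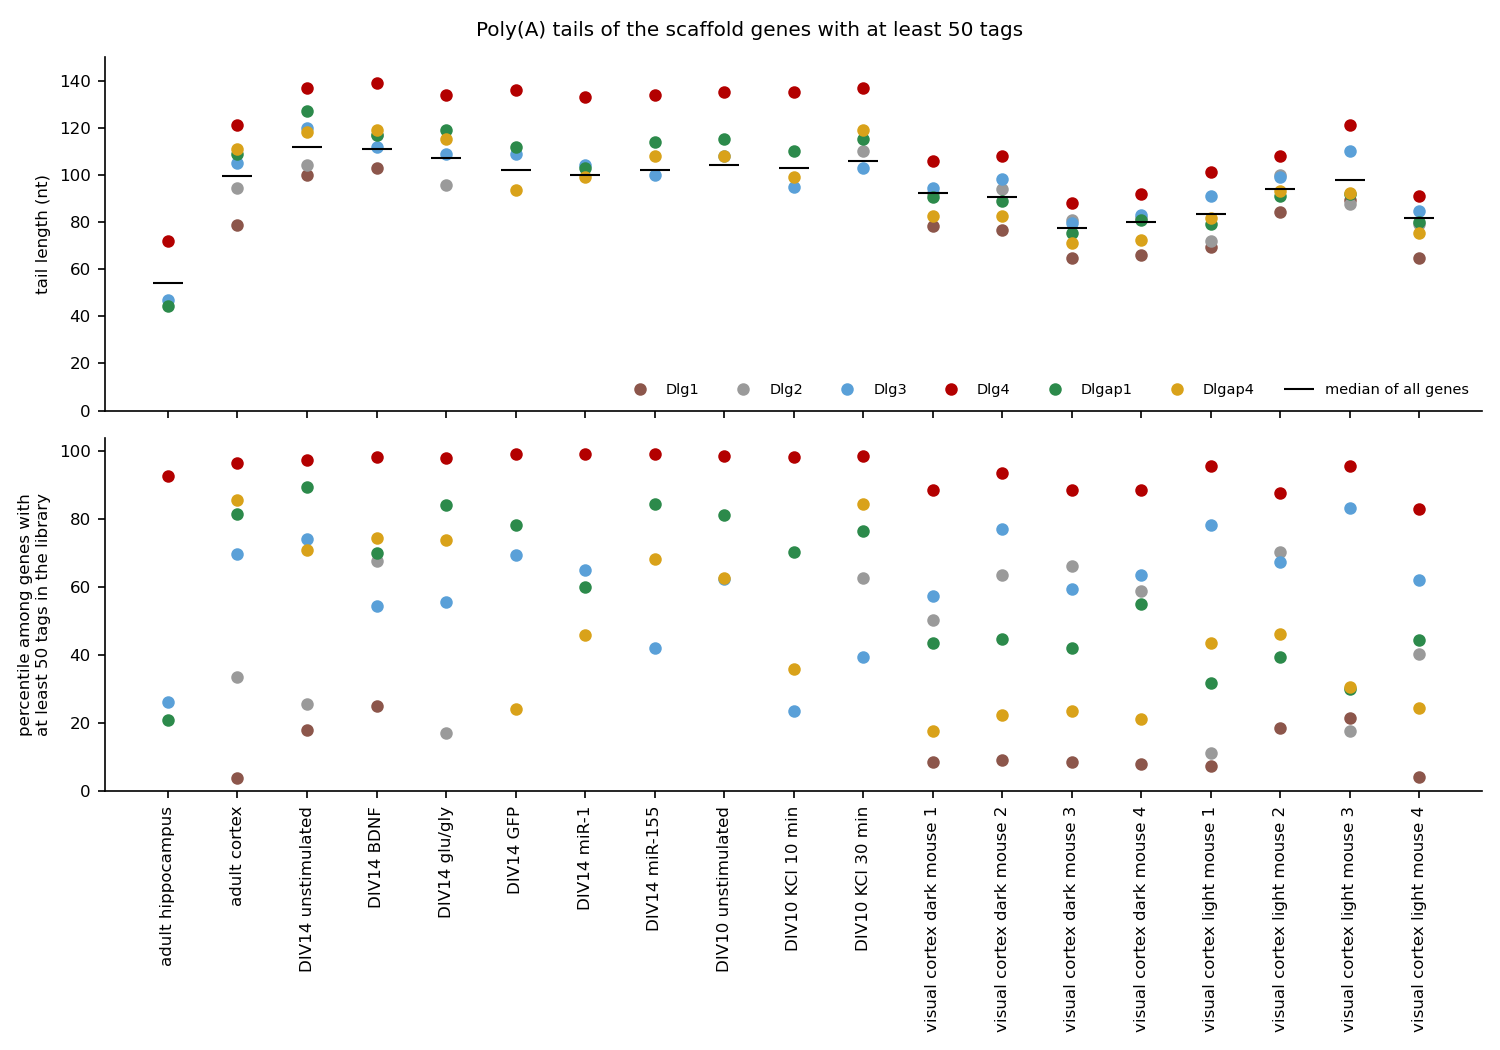
Tail length in nt (upper panel; black bars, median of all genes with at least 50 tags) and percentile in its library (lower panel) for the 6 scaffold genes with at least 50 tags in any library; the hippocampus and visual cortex libraries are PAL-seq v2 and the rest TAIL-seq. Dlg4 is highest in each library, at 133 to 139 nt in the cultures, and Dlg1 is lowest in 10 of the 11 libraries that measure it.

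The Shank genes had almost no tail tags. Over all tail libraries Shank1 had 0 to 3 tags, Shank2 0 to 5 and Shank3 0 to 28, and no tail length is given for them. Adult hippocampus had 13148 RNA-seq reads and 0 tail tags of Shank1. The annotated transcript ends 1741 nt before the annotated end of the gene in Shank1 and 1549 nt in Shank2, but at that end in Shank3, and the part of this in the tag counts was not tested. In embryonic hippocampus no member reached 50 tags.

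Tails of the members shifted with those of the other genes between samples, and no replicate check was possible in the cultures and tissues. Adult cortex had shorter tails than the DIV14 culture for all 6 members measured, with differences from -6.92 nt (Dlgap4) to -21.7 nt (Dlg1), while the median of 2663 genes fell by 12.4 nt with a standard deviation over genes of 8.30. Dlg4 tails differed by -2.81 nt with glu/gly, 1.77 with BDNF, -0.691 and 1.20 after KCl for 10 and 30 min, and -2.38 and -1.76 with miR-1 and miR-155, within the standard deviation over genes of 6.99 to 7.46 nt in each comparison. The differences farthest from the rest were those of Dlgap4 with GFP, at -24.9 nt on 72 and 150 tags (the 1.35th percentile of changes), of Dlgap4 with miR-155 against GFP, at 14.1 nt (the 97.6th), of Dlg3 after KCl for 10 min, at -12.8 nt on 79 and 59 tags (the 3.97th) and of Dlg2 with BDNF, at 12.7 nt on 82 and 93 tags (the 96.5th). The first 2 share the GFP library, in which the Dlgap4 tail was 93.5 nt, and in the first of them virus and batch cannot be told apart.

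Light after darkness, with 4 mice in each group, was the comparison that could be tested. By edgeR's quasi-likelihood test on tag counts 128 of 9554 genes differed at an adjusted p under 0.05 (1.34%), 116 higher and 12 lower in light. All 6 immediate-early genes were higher, with a median log2 change of 3.60, in 4 of 4 light mice above every dark mouse. Of the members, Dlg1, Dlg2, Dlg3, Dlg4, Dlgap1 and Dlgap4 had enough tags to be tested and 0 of 6 passed, with adjusted p-values by edgeR from 0.684 to 0.994 and 0 with an unadjusted p under 0.05. DESeq2 also called 0 of the 6. The 3 Shank genes had 0 to 22 tags a mouse and were not tested. Of the 36 partners 30 were tested and 0 passed.

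The largest member change in level was that of Dlg4. Its level in CPM of tags, scaled by TMM, was 149, 162, 171 and 194 in the dark mice and 155, 122, 107 and 196 in the light mice, a log2 change of -0.23 ± 0.14 (SE, edgeR adjusted p = 0.684). The groups overlapped, with the highest value in a light mouse. Dlgap4 stood at 149, 124, 126 and 134 in the dark and 140, 140, 159 and 146 in the light (0.14 ± 0.11, edgeR adjusted p = 0.765). Dlgap1, the most abundant member by tags, stood at 626 ± 59.9 (SD, n = 4) and 635 ± 47.2 and changed by 0.012 ± 0.090. Dlg1, Dlg2 and Dlg3 changed by -0.051 ± 0.10, -0.0100 ± 0.14 and -0.059 ± 0.10.

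**Figure D4:**
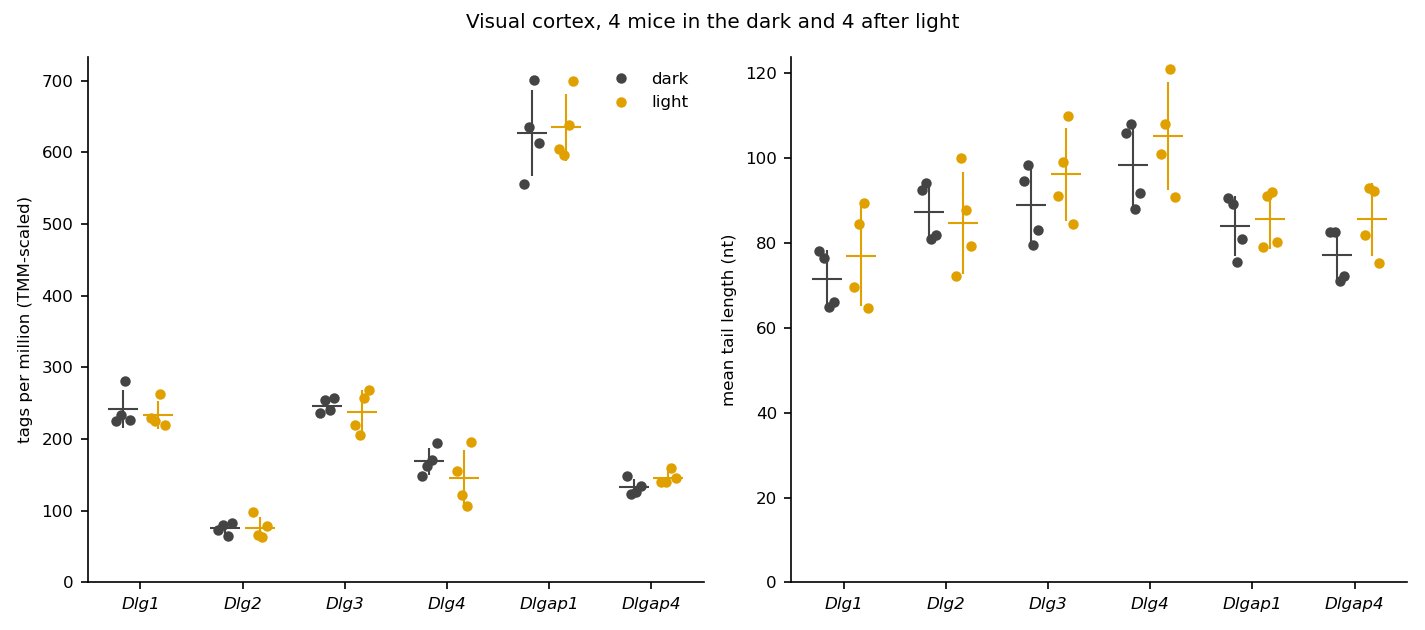
Level in TMM-scaled CPM of tags (left) and mean tail length in nt (right) of the 6 scaffold genes tested in visual cortex; points are mice (4 dark, 4 light), lines are means and bars standard deviations. For each gene the light and the dark mice overlap in both panels.

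Tail lengths did not pass the test either. By limma on mean tails 10 of 4321 genes differed (0.231%), all longer in light, and 0 of 6 members did (adjusted p = 0.999 by limma for each; 0 of the 25 partners tested passed). Dlg4 tails were 106, 108, 88.1 and 91.8 nt in the dark and 101, 108, 121 and 90.9 nt in the light, a difference of 6.79 ± 6.7 nt (SE). Dlgap4 tails were 82.6, 82.6, 71.0 and 72.3 nt in the dark and 81.9, 93.0, 92.3 and 75.2 nt in the light, the largest difference of the members at 8.49 ± 6.7 nt. The 2-sided exact permutation p of the members ran from 0.171 to 0.686, where the smallest that 4 against 4 mice allow is 0.0286. Dlg2 had shorter tails in light (-2.57 nt) and the other 5 longer, while the median of all genes was 3.75 nt longer and library medians ranged from 77.5 to 97.8 nt among the mice. The test found 46% of simulated shifts of 20 nt.

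Over all 12 RNA-seq libraries Dlg4 had the highest level per kb of the members in 10, and it had the highest RPF level in 3 of 10. Among these 10, Dlg2 exceeded Dlg4 in RPFs in the DIV14 cultures, at 172 against 150 without stimulation. It also did so at DIV10 after KCl, at 62.2 against 54.8 after 10 min and 92.8 against 56.8 after 30 min. Of the 2 DIV14 RPF libraries left out, 1 had Dlg2 at 176 and Dlg4 at 124, and the deeper had Dlg2 at 150 and Dlg4 at 189. Among the genes whose log2 RNA-seq level went most nearly with that of Dlg4 over the 12 libraries, of 9635 genes, were Adgrb2 (Pearson r = 0.961), Rnf157 (0.955), Pip5k1c (0.945) and Camta2 (0.944). Among the members Shank3 (0.900), Shank2 (0.865) and Dlgap1 (0.861) went with it most nearly and Dlg1 (0.276) and Dlg2 (0.237) least. The 12 libraries share preparation, depth and tissue in groups, and over the 9 cultures alone r was 0.672 for Shank3, 0.642 for Dlg2 and 0.111 for Dlgap1.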

How the data were processed

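RNA-seq, RPF, TAIL-seq and PAL-seq v2 tables of 44 samples were used, except 2 RPF libraries whose labels contradict each other. The authors aligned reads with STAR (version 2.4.2 per the labels, build mm10) and deposited read counts (tags) and RPM per RefSeq gene for RNA-seq and RPFs, counted over the ORF without its first 50 nt. For tails the authors deposited tags and a mean tail length in nt per gene, and a table without a header for the hippocampi, whose values are multiples of 0.5 nt and were taken as medians.

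Members were matched by RefSeq identifier, and sequences and gene features came from RefSeq on GRCm38.p6. The members, the 36 partners and the marker lists were chosen with earlier results of these data known. Levels were reads per kb of counted ORF per 1000000 reads on genes, with totals from 448022 to 7689624 for RNA-seq. TE was computed where a gene had 10 RPM or more by RNA-seq and 1 RPF or more, and its error is counting error. Changes between single libraries are log2 ratios with conditional Clopper-Pearson 95% intervals that cover counting error only. A gene was called past 2-fold among genes with a mean CPM of at least 10 over both libraries. Because no test is possible with 1 library a group, no p-value is given for tissues and cultures.

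Light and dark mice were compared with edgeR 4.0.16 (TMM, filterByExpr, quasi-likelihood test) for tags and limma 3.58.1 for mean tails of genes with at least 50 tags in each library, both with Benjamini-Hochberg adjustment over all genes and a threshold of 0.05. The spread that limma shares over genes was so uniform that each gene had a standard error of 6.68 nt. Deviations of mice with the same number correlated between -0.196 and 0.0309 in level and between -0.113 and 0.0405 in tail length, so no pairing was used. The lowest chi-square per degree of freedom between mice was 2.09, so no library was a repeat of another. Both scripts were tested on simulated data. DESeq2 1.42.0, no filter, the sample number as block, leaving out each mouse, other tag minimums and scales, the RPM of the authors, TMM factors, tail tags, and RPM cutoffs were tried as alternatives. The text names the 9 members, per comparison the 2 partners that changed most past 2-fold (all that pass the test in visual cortex), the marker lists, and the 5 genes most like Dlg4, except items that are not reported here.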

Additional observations from a re-analysis of the deposited data

Results flagged for a closer look

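Of the 24 sets of 4 mice tested (6 members, level and tail length, in the dark and in the light), 1 held a mouse far from the others by Dixon's criterion: Dlg1 in dark mouse 3, at 281 CPM (TMM-scaled) against 225, 234 and 227 in the other dark mice. The criterion is exceeded by chance in about 1 of 20 such sets.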

How the results depend on the processing

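Across the alternatives, 228 recomputed counts that answer a comparison stayed within 1.5 times the count given and 35 did not, and no called change reversed. In visual cortex no setting brought a scaffold gene past the test. Genes lower in light went from 12 to 30 without a filter, and from 6 (without light mouse 3) to 20 (without light mouse 4) when 1 mouse was left out. Genes with longer tails in light went from 10 to 5 and 3 with at least 20 and 200 tags, 1 on a log2 scale, 3 relative to the library median and 1 with the replicate block, and from 1 to 21 without 1 mouse (1 without dark mouse 3, dark mouse 4, light mouse 2 or light mouse 3 alone, 2 without dark mouse 2, 21 without light mouse 4); genes with shorter tails went from 0 to 3 with at least 20 tags and to 0 to 6 without 1 mouse (6 without dark mouse 1, 1 without light mouse 3). The replicate block gave 103 genes higher and 10 lower in level. With tail tags in place of RNA-seq, 1 member was past 2-fold lower in adult hippocampus (Dlgap4), 0 higher in cortex than in DIV14 culture, 3 higher and 0 lower at DIV14 than at DIV10, 0 higher with glu/gly, 1 higher after KCl for 30 min and 0 lower with miR-1. Shank1 and Shank2 had at most 3 and 5 tail tags in any library, too few to be called in these comparisons. With at least 30 RPM, which fewer members reach, TE was past 2-fold higher for 2 in adult hippocampus and for 0 at DIV14, lower for 2 in cortex against DIV14 culture and for 0 with glu/gly, and below the median for 2, 3 and 1 members at DIV10 and after KCl for 10 and 30 min. With no cutoff 1 member had a lower TE at DIV14, and without subtracting the median 3 did after KCl for 10 min. The RPM of the authors shifted all RNA changes by -0.61 (cortex against hippocampus) to 0.28 (miR-1) on the log2 scale, with 0 members past 2-fold higher in cortex than in hippocampus and 0 lower with miR-1, and TMM factors shifted them by -0.12 to 0.28; the cause was not tested. Shank1 rested on 22 RNA-seq reads in the unstimulated DIV14 culture, which limits its values there.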

Other observations

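The 2 remaining ribosome profiling libraries of the microRNA experiment carry labels that contradict each other on which microRNA was expressed, and they entered no comparison. In the first, with 817114 RPFs on genes, Dlg4 stood at 124 CPM per kb, Dlg2 at 176, Dlg3 at 106, Dlg1 at 23.3, Dlgap1 at 72.3, Dlgap4 at 66.9, Shank1 at 13.5, Shank2 at 38.9 and Shank3 at 19.5. In the second, with 6428048 RPFs on genes, Dlg4 stood at 189, Dlg2 at 150, Dlg3 at 97.6, Dlg1 at 27.0, Dlgap1 at 64.2, Dlgap4 at 58.5, Shank1 at 19.8, Shank2 at 39.3 and Shank3 at 20.3.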
